A study of Mus musculus with 8 samples.

Results

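*Ctgf* (connective tissue growth factor, also called *Ccn2*) is a standard target gene of the transcriptional co-activator YAP, and it was examined here with 5 further YAP target genes and 3 genes of the effector machinery. The target genes were *Ctgf*, *Cyr61*, *Ankrd1*, *Amotl2*, *Axl* and *Ajuba*, and the effectors were *Yap1*, *Wwtr1* and *Tead1*. These 9 genes were found by their symbols among 24385 features of the expression table, and all 9 passed the filter of a mean of at least 1 FPKM (fragments per kilobase of transcript, scaled to the library's mapped fragments). The genes were selected on the E9.5 expression values of these same libraries, in which *Ctgf* was high in the knockout hearts. The E9.5 difference between genotypes is therefore given for all 9 genes as values and counts that describe them, with no p-value.

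RNA was sequenced from dissected C57BL/6 mouse hearts at embryonic day 8.5 (E8.5) and 9.5 (E9.5), with 2 independent biological replicates in each of 4 groups of stage and genotype. The control embryos, labelled WT, were *Dgcr8* loxP/loxP; *Rosa26* mT/mG/+ without Cre. The *Dgcr8* cKO embryos carried *Mesp1* Cre/+ besides the floxed pair *Dgcr8* loxP/loxP and the reporter *Rosa26* mT/mG/+, so that the genotypes shared the floxed alleles and the reporter and differed by the Cre allele and the deletion that it causes. *Mesp1* drives Cre in early mesoderm whose progeny include the myocardium and the endocardium, so the deletion was not limited to cardiomyocytes. The DGCR8 protein holds primary miRNA transcripts for their first cut by the nuclease Drosha.

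In the Hippo pathway the MST kinases activate the LATS kinases, which phosphorylate YAP (*Yap1*) and its paralog TAZ (*Wwtr1*) and so hold them in the cytoplasm. When that brake is released they enter the nucleus and bind TEAD proteins such as TEAD1, which recognise the MCAT motif in promoters and enhancers. In the embryonic heart this pathway is known for its control of cardiomyocyte proliferation. YAP activity is set mainly by phosphorylation and location, which RNA levels do not measure.

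Summed FPKM per library ranged from 884018 to 1944596, and relative depth, read from the spacing of low values, from 1 to 1.45. The absolute depth was unknown, so no counting interval could be given. *Dgcr8* was at 7.10 and 8.60 FPKM in WT and 1.64 and 4.67 in cKO hearts at E8.5, and 3.49 and 3.23 in WT and 1.15 and 1.77 in cKO hearts at E9.5, lower in both cKO libraries at each stage, although neither difference passed the test (adjusted p = 0.59 and 0.317, limma with Benjamini-Hochberg adjustment). The 7 cardiomyocyte markers all had a mean of at least 1 FPKM and summed to between 23500 and 71700 FPKM. The E8.5 cKO libraries stood apart from each other: 7 decidual stroma markers summed to 769 and 6630 FPKM in replicates 1 and 2, against 1130 and 2150 in E8.5 WT. They also differed in the 5 erythroid (35500 and 9730) and 4 yolk sac markers (4620 and 1400), and the E8.5 WT libraries differed in the erythroid (7760 and 23800), yolk sac (536 and 1740) and ectoderm markers (61.5 and 9.37).

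*Ctgf* lies on chromosome 10 (chr10:24595442-24598682, GRCm38) and encodes a secreted matricellular protein of the CCN family. Its level was 13.0 and 18.1 FPKM in WT and 15.6 and 5.41 in cKO hearts at E8.5, and 11.2 and 21.5 in WT and 350 and 151 in cKO hearts at E9.5. Both E9.5 cKO libraries lay above the other 6, and these 6 overlapped across groups. The mean of the E9.5 WT libraries was 16.4 ± 7.27 FPKM, that of the cKO libraries was 15.2 times as high, and the SD of the latter was 141 FPKM (n = 2 each). On the log2(FPKM + 1) scale the difference was 3.80 (SE 0.57), the sixth highest of 10018 tested genes, whose median difference was -0.07. In rank from the highest level in a library, *Ctgf* stood at 323 and 597 in the E9.5 cKO libraries and between 2159 and 5896 in the others.

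*Cyr61* (*Ccn1*, chr3:145646971-145649985) encodes the CCN relative of CTGF and is an immediate-early gene as well as a YAP target. It was at 65.4 and 86.1 FPKM in WT and 75.6 and 34.4 in cKO hearts at E8.5, and 38.6 and 81.8 in WT and 225 and 163 in cKO hearts at E9.5. The E9.5 cKO libraries were again above all 6 others, with group means of 194 ± 44.4 FPKM against 60.2 ± 30.5 in E9.5 WT (SD, n = 2), a ratio of 3.22. The log2 difference was 1.75 (SE 0.47). The excess was smaller than that of *Ctgf*: per library, *Ctgf* FPKM divided by *Cyr61* FPKM, values that are each per transcript length, was between 0.157 and 0.291 in the 6 libraries of the other groups and 1.55 and 0.926 in E9.5 cKO.

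*Ankrd1* (chr19:36111965-36119844) encodes a cardiac ankyrin repeat protein that links the sarcomere to transcription and responds to stretch. It was the most abundant member per transcript length in every library but E9.5 cKO replicate 1, at 302 and 544 FPKM in WT and 253 and 320 in cKO hearts at E8.5, and 70.3 and 181 in WT and 340 and 209 in cKO hearts at E9.5. At E9.5 both cKO libraries were above both WT libraries (log2 difference 1.23, SE 0.50, ratio of means 2.17). In FPKM as listed, replicate 1 of E9.5 cKO lay within the range of the E8.5 libraries and replicate 2 below it. The E9.5 WT libraries were the lowest of the 8. FPKM fell between the stages for most genes, with a median log2 change of -0.84 in WT and -0.64 in cKO. Relative to this median, *Ankrd1* changed by -1.0 in WT and by 0.54 in cKO.

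*Axl* (chr7:25756500-25788733) encodes the receptor tyrosine kinase for the ligand GAS6. Its level was 2.06 and 1.74 FPKM in WT and 1.68 and 0.923 in cKO hearts at E8.5, and 6.55 and 4.55 in WT and 12.8 and 10.6 in cKO hearts at E9.5. In FPKM as listed, the libraries of all 4 groups were separated. Their order was E8.5 cKO, E8.5 WT, E9.5 WT and E9.5 cKO. On the log2(FPKM + 1) scale cKO minus WT was -0.35 (SE 0.27) at E8.5 and 0.97 (SE 0.27) at E9.5. The E8.5 difference was -0.07 relative to the median of all genes, which was itself at -0.28.

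*Amotl2* (chr9:102717804-102733417) encodes an angiomotin-like scaffold that binds YAP and restrains it, so it is both target and inhibitor. It was at 19.2 and 21.7 FPKM in WT and 13.1 and 9.86 in cKO hearts at E8.5, and 14.1 and 20.1 in WT and 21.6 and 16.7 in cKO hearts at E9.5. At E9.5 the genotypes overlapped (log2 difference 0.16, SE 0.29). *Ajuba* (chr14:54567469-54577661), whose LIM protein binds LATS kinases and restrains them, was at 5.78 and 8.09 FPKM in WT and 6.11 and 8.14 in cKO hearts at E8.5, and 2.83 and 2.27 in WT and 7.14 and 3.46 in cKO hearts at E9.5. Its E9.5 libraries did not overlap (log2 difference 0.77, SE 0.34), and as with *Ankrd1* the E9.5 WT libraries were the lowest of the 8.

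Among the effectors, *Yap1* (chr9:7932001-8004596) was at 6.34 and 6.61 FPKM in WT and 5.06 and 5.26 in cKO hearts at E8.5, and 2.96 and 2.23 in WT and 1.80 and 1.52 in cKO hearts at E9.5. Both cKO libraries were below both WT libraries at each stage, with an E9.5 log2 difference of -0.43 (SE 0.22). *Wwtr1* (chr3:57455644-57575910), the gene of TAZ, was at 5.43 and 5.67 FPKM in WT and 3.63 and 4.59 in cKO hearts at E8.5, and 2.68 and 2.61 in WT and 5.47 and 3.28 in cKO hearts at E9.5. It was lower in both cKO libraries at E8.5 and higher in both at E9.5 (log2 difference 0.53, SE 0.27). At E8.5 the log2 differences of *Yap1* and *Wwtr1* were -0.28 and -0.36, where the median of all genes was -0.28. Per library, *Wwtr1* FPKM divided by *Yap1* FPKM was between 0.717 and 1.17 in the other 6 libraries and 3.04 and 2.16 in E9.5 cKO. *Tead1* (chr7:112679320-112906805), the DNA-binding partner, was at 3.05 and 3.07 FPKM in WT and 2.0 and 3.83 in cKO hearts at E8.5, and 0.576 and 0.929 in WT and 2.07 and 0.782 in cKO hearts at E9.5. Its genotypes overlapped at both stages.

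**Figure D1:**
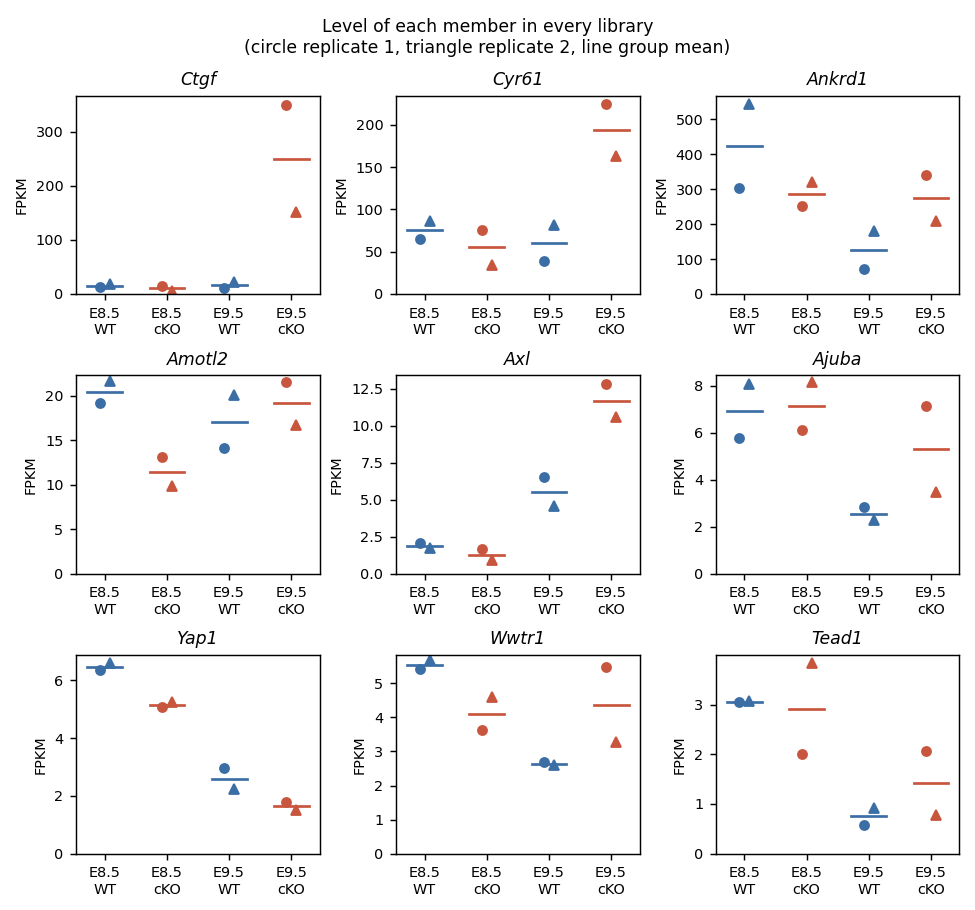
FPKM of each of the 9 genes (vertical axes, linear and starting at 0) in the 2 libraries of each stage and genotype group, with circles for replicate 1, triangles for replicate 2 and lines for group means. The E9.5 cKO libraries of *Ctgf* stand at 350 and 151 FPKM against at most 21.5 in every other library, while those of *Amotl2* overlap with WT.

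Counted at E9.5 by libraries that did not overlap and a fold of at least 1.5 on the FPKM + 1 scale, 5 of 9 members were higher in cKO (*Ctgf*, *Cyr61*, *Ankrd1*, *Axl* and *Ajuba*) and 0 were lower. Over all genes tested, 8.63% were higher and 13.8% lower by the same count. By the all-gene limma test (adjusted p under 0.05 and at least 1.5-fold), under which 0.17% of genes were called higher, 0 of 9 members were called, and 1, *Ctgf*, after median-ratio scaling, with a mean of at least 5 FPKM, or without either E8.5 cKO library. The members were selected on this contrast, so these counts describe them and support nothing. The median log2 difference was 1.1 over the 6 target genes and 0.42 over the 3 effectors. Leaving out 1 library moved single differences widely: that of *Ankrd1* lay between 0.55 and 1.91 by the E9.5 WT library left out, and those of *Ajuba* between 0.34 and 1.2, *Wwtr1* between 0.23 and 0.83, and *Tead1* between 0.03 and 0.82 by the E9.5 cKO library. The difference of *Yap1* lay between -0.58 and -0.28. The replicates of E9.5 cKO also differed: replicate 1 was above replicate 2 for 9 of 9 members, against 63.3% of all tested genes, and *Ctgf* differed between them by 1.21 on the log2(FPKM + 1) scale.

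Markers of several cell types differed with genotype at E9.5. The 7 mesenchymal and epicardial markers summed to 81.2 and 88.2 FPKM in WT and 23.2 and 28.2 in cKO, with 6 of 7 lower in both cKO libraries. The 7 endothelial markers summed to 51.7 and 66.2 in WT and 79.0 and 78.4 in cKO, with *Pecam1*, *Tie1* and *Nfatc1* higher and *Tek* lower in both, and the cardiomyocyte markers summed to 51900 and 51100 in WT and 69800 and 71700 in cKO. Of the 7 cardiomyocyte markers 4 were higher in both cKO libraries (*Actc1*, *Nkx2-5*, *Myl7* and *Tnni1*) and 1, *Myh6*, was lower, at 916 and 777 FPKM in WT and 424 and 567 in cKO. The 5 primitive erythroid markers summed to 14400 and 29600 in WT and 39600 and 29100 in cKO, with 3 of 5 (*Hba-x*, *Gata1* and *Klf1*) higher in both cKO libraries and 0 lower. None of the markers of these 4 lists was listed at 0 in an E9.5 library. The 4 ectoderm markers summed to 17.1 and 16.6 in WT and 4.89 and 10.3 in cKO, with *Epcam* lower in both cKO libraries and *Sox2* and *Pax6* listed at 0 in an E9.5 library. In whole hearts, more cells of a type and more RNA per cell cannot be told apart, and the part of these markers in the members' levels was not tested. Across genes, the GC content of the transcript and the E9.5 difference had a Spearman rho of 0.405, and differences between replicates 1 and 2 of the same genotype had one of 0.627 in E9.5 WT and 0.18 in E9.5 cKO. GC content was between 43.9% and 57.5% for the members and 50.7% at the median of tested genes. The part of GC content was not tested either.

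The TEAD-binding sequence was looked for as a feature apart from the expression values by which the genes were chosen, although binding by TEAD is part of what YAP target genes are known for. The motif was CATTCC, the core of MCAT, on either strand, in RefSeq windows on GRCm38.p6 from 250 bases before to 50 after the start of transcription. A promoter was found in the table for 7 of the 9 members, all but *Ctgf* and *Tead1*, and all 7 held at least 1 match. The same letters were in 14.7% of all 32851 promoters, in 12.2% of the 7666 first promoters of tested genes, and in 4 of 18 (22.2%) promoters of the further YAP target genes described below. The matches lay at -103 in *Cyr61*, -210 and -123 in *Ankrd1*, -65 in *Amotl2*, -233 in *Axl*, -186 and -164 in *Ajuba*, -141 in *Yap1* and -136 in *Wwtr1*, in bases from the start. The 250 bases before the start are shown for 3 target genes, *Cyr61* and *Ankrd1*, whose E9.5 cKO libraries were above WT, and *Amotl2*, whose libraries overlapped, each read 5′ to 3′ on the gene's strand with the motif in capitals. The *Cyr61* window is chr3:145649986-145650235 on the minus strand, that of *Ankrd1* chr19:36119845-36120094 on the minus strand and that of *Amotl2* chr9:102717554-102717803 on the plus strand.
Cyr61: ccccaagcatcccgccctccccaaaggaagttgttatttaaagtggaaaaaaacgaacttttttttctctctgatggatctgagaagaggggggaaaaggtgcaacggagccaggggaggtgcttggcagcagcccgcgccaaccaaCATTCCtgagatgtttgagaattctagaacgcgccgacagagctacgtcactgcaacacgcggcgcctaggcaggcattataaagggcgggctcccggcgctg
Ankrd1: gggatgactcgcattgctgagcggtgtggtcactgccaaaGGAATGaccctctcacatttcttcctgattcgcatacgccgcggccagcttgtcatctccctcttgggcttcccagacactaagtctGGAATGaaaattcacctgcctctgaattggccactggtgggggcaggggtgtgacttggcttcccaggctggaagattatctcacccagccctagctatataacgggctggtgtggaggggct
Amotl2: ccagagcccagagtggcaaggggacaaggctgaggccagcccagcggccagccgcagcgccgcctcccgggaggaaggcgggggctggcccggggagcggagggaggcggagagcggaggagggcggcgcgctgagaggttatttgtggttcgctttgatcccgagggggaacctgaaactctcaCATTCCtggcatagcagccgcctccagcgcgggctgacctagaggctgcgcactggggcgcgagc
Both kinds of promoter thus held the letters, with 1 match in *Cyr61* and in *Amotl2* and 2, read from the other strand, in *Ankrd1*. A match is a description of these letters and was not measured as binding.

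**Figure D2:**
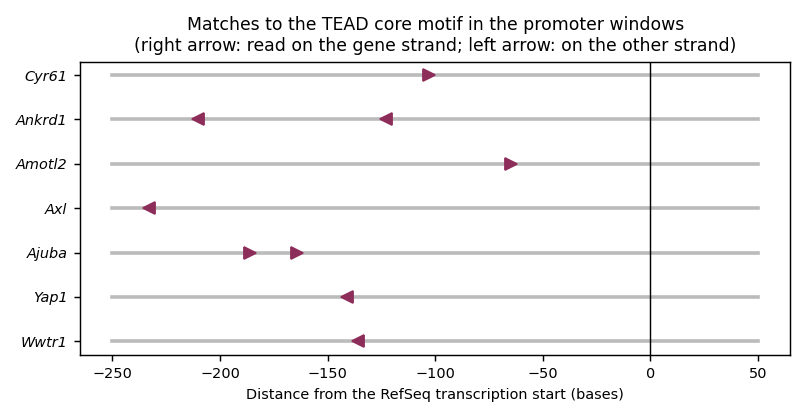
Position of each match to the TEAD core motif (arrows, pointing right on the gene's strand and left on the other) in the promoter window of the 7 members for which a promoter was found. The horizontal axis is the distance in bases from the start of transcription, and all matches lie before it, between -233 and -65.

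Because *Dgcr8* is needed to make most miRNAs, the annotated 3′ untranslated ends of the members were searched for the complement of 6 miRNA seeds (bases 2 to 8 of the mature miRNA), a list drawn up after the expression values had been seen. The longest 3′ end of *Ctgf* in the GENCODE set for NCBIM37 was 1072 bases and held a site for miR-541-5p at base 868, counted from the first base after the stop codon, and sites for miR-18a-5p and miR-19b-3p at bases 1025 and 1022, which overlap. They are shown because *Ctgf* had the largest E9.5 difference of the members, with the miRNAs from RefSeq in RNA letters and the seed or its complement in capitals.
miR-541-5p: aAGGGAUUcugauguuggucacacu
Ctgf site of miR-541-5p: aaatgtggtcaAATCCCTgttggtg
miR-18a-5p: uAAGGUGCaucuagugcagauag
Ctgf site of miR-18a-5p: gttacatgtttGCACCTTtctagtt
miR-19b-3p: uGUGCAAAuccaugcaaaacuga
Ctgf site of miR-19b-3p: aaagttacatgTTTGCACctttcta
The miR-541-5p site was in 7.29% of the 9051 3′ ends of tested genes, and among the members also in those of *Amotl2*, *Yap1* and *Tead1*. Whether the sites go with the levels of the members was not tested. The miR-18a-5p site was in 8.32% and also in *Wwtr1*, and the miR-19b-3p site in 11.2% and also in *Tead1*. The miR-30a-5p seed had no match in *Ctgf* and at least 1 in *Cyr61*, *Ankrd1*, *Amotl2* and *Wwtr1*, against 13.8% of 3′ ends. Only full matches to bases 2 to 8 were looked for, so other kinds of site would be missed. The authors cite an earlier report of *Ctgf* as a target of miR-30. The seeds of miR-26a-5p and miR-126a-3p, with matches in 9.82% and 0.243% of 3′ ends, had none in the 9 members. The levels of the miRNAs were not analysed here.

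At E8.5, a day earlier, no target gene had both cKO libraries above both WT libraries. The log2 differences were -0.67 for *Ctgf* (adjusted p = 0.665, limma), -0.55 for *Cyr61* (0.67), -0.51 for *Ankrd1* (0.70), -0.79 for *Amotl2* (0.59), -0.35 for *Axl* (0.64) and 0.04 for *Ajuba* (0.97), against a median of -0.28 over all genes. Those of *Yap1*, *Wwtr1* and *Tead1* were -0.28, -0.36 and -0.09, and those of *Yap1* and *Tead1* turned to 0.01 and 0.15 after median-ratio scaling. By the limma test 0 of 9 members were called in either direction, where the share of all genes called was 0.00998% upwards and 0.0% downwards. An unadjusted p under 0.05 was reached by 1 member, *Amotl2* (SE 0.29), with a lower level, as it was by 7.55% of all genes. By libraries that did not overlap and 1.5-fold, 0 members were higher (0.439% of genes) and 1 was lower, again *Amotl2* (11.9% of genes). Without E8.5 cKO replicate 2, the library with the high decidual markers, the differences of *Ctgf* and *Cyr61* were 0.02 and 0.01. Without E8.5 cKO replicate 1 they were -1.35 and -1.1.

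The cKO effect at E9.5 minus that at E8.5 was 4.46 (SE 0.80) for *Ctgf*, 2.29 for *Cyr61*, 1.74 for *Ankrd1*, 1.32 for *Axl*, 0.96 for *Amotl2* and 0.73 for *Ajuba* on the log2 scale. It was 0.90 for *Wwtr1*, 0.52 for *Tead1* and -0.15 for *Yap1*, and 0.18 at the median of all genes. These values contain the E9.5 difference by which *Ctgf* was chosen, and they are given without a test.

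**Figure D3:**
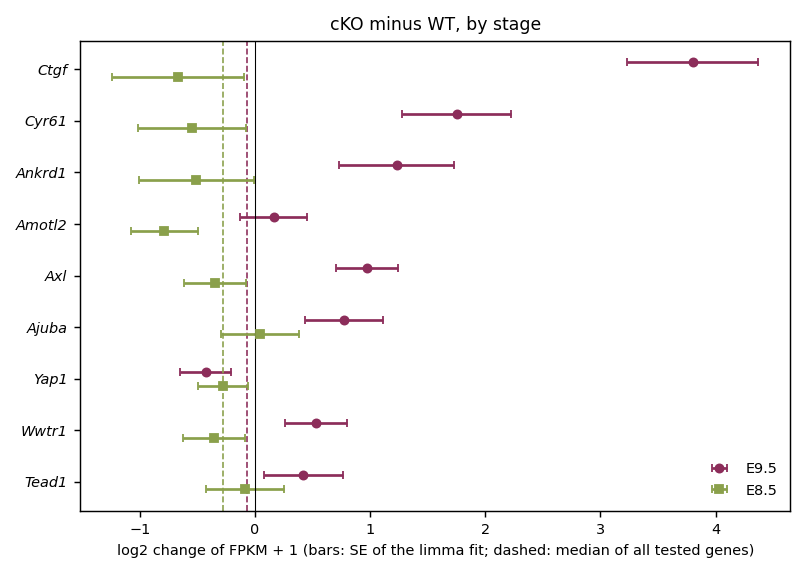
Log2 difference of FPKM + 1 between cKO and WT hearts (horizontal axis) for the 9 genes at E9.5 (circles) and E8.5 (squares), with SE of the limma fit as bars and the median of all tested genes as dashed lines. *Ctgf* was at 3.80 at E9.5 and -0.67 at E8.5, and *Yap1* was below 0 at both stages (0.01 at E8.5 after median-ratio scaling).

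Between E8.5 and E9.5 in WT hearts, the control group for this day of development, FPKM values fell for most genes, with a median log2 change of -0.84. These changes share the E9.5 WT libraries with the contrast by which *Ctgf* was chosen, so values and counts are a description, with no p-value. The difference was 0.02 for *Ctgf* (0.97 after median-ratio scaling), -0.41 for *Cyr61* and -0.26 for *Amotl2*, the last 2 of which turned to 0.60 and 0.70 after median-ratio scaling. *Axl* was at 1.16, and at 1.87 after scaling the libraries to a common median ratio. *Ankrd1* was at -1.83, *Tead1* at -1.22, *Ajuba* at -1.15, *Yap1* at -1.06 and *Wwtr1* at -0.85 (0.12 under quantile normalization). The all-gene threshold was passed by 1 of 9 members upwards (*Axl*) and by 5 downwards, where 1.4% and 46.7% of all genes passed it. After median-ratio scaling 1 passed it upwards and 0 downwards, where 2.92% and 0.649% of genes were. Relative to the median gene, 2 members (*Ctgf* and *Axl*) were at least 1.5-fold higher and 1 (*Ankrd1*) lower, where 15.8% and 12.6% of genes were. On that scale *Ankrd1* was at -1.0 and *Ajuba*, *Yap1*, *Wwtr1* and *Tead1* between -0.38 and -0.01. *Axl* did not pass without E8.5 WT replicate 1 (1.24), E8.5 WT replicate 2 (1.08) or E9.5 WT replicate 1 (0.94). Downwards, 0 members passed when any 1 of these 3 libraries was left out, and 1, *Ankrd1*, without E9.5 WT replicate 2.

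In cKO hearts, the same day of development brought a log2 change of 4.48 for *Ctgf*, 2.48 for *Axl*, 1.89 for *Cyr61* and 0.70 for *Amotl2*, against a median of -0.64 for all genes. *Yap1* was at -1.21, *Tead1* at -0.70, *Ajuba* at -0.42, *Ankrd1* at -0.09 and *Wwtr1* at 0.05, with *Ajuba* and *Ankrd1* at 0.24 and 0.68 after median-ratio scaling. The all-gene threshold was passed by 3 of 9 members upwards (*Ctgf*, *Cyr61* and *Axl*) and by 1 downwards (*Yap1*), where 2.05% and 28.5% of genes passed it. After median-ratio scaling *Amotl2* was added (1.43) and *Yap1* was not called (-0.65), so that 4 and 0 members passed, where 3.56% and 0.739% of genes did. Relative to the median gene, 5 members (*Ctgf*, *Cyr61*, *Amotl2*, *Axl* and *Wwtr1*) were at least 1.5-fold higher and 0 lower, where 18.9% and 17.3% of genes were. These changes share the E9.5 cKO libraries with the contrast by which *Ctgf* was chosen, so the counts are a description. Without either E9.5 cKO replicate 1 or 2, 0 members passed. *Ctgf* was then at 3.88 or 5.09, *Axl* at 2.35 or 2.60, *Cyr61* at 1.65 or 2.12, and *Yap1* at -1.29 or -1.14. Without E8.5 cKO replicate 2 (1.33), or with no filter on low values, *Cyr61* did not pass.

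**Figure D4:**
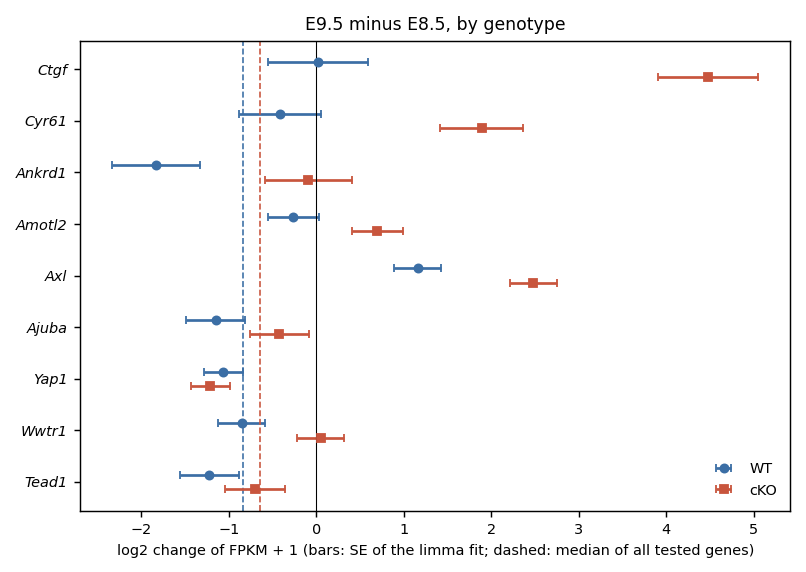
Log2 change of FPKM + 1 from E8.5 to E9.5 (horizontal axis) for the 9 genes in WT (circles) and cKO hearts (squares), with SE of the limma fit as bars and the median of all tested genes as dashed lines. *Ctgf* was at 0.02 in WT and 4.48 in cKO, *Axl* was above 0 in both and *Yap1* below 0 in both.

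To ask whether the high *Ctgf* level was shared by YAP targets beyond the members, 29 further target genes were examined at E9.5, 19 of which passed the filter. Their median log2 difference was 0.02, against -0.07 for all genes, and 12 of 19 were above the median gene. This list and those below were drawn up with earlier results of these data known. Their calls and adjusted p-values are therefore a description. Of the 19 genes, the limma test called 1 higher and 0 lower, where 0.17% and 0.00998% of all genes were called. That gene was *Edn1*, which encodes endothelin-1, a vasoactive peptide made by endothelium and endocardium. *Edn1* was at 1.74 and 2.06 FPKM in WT and 1.47 and 1.07 in cKO hearts at E8.5, and 1.11 and 1.93 in WT and 9.53 and 7.38 in cKO hearts at E9.5. Its E9.5 cKO libraries were above all others, and it rose by 1.92 (SE 0.26, adjusted p = 0.0496). The call was lost with a pseudocount of 0.1, with no filter on low values, or with a fit of the E9.5 libraries alone. It was also lost when either E8.5 WT library was left out (adjusted p = 0.116 without replicate 1 and 0.113 without replicate 2), or E9.5 WT replicate 1 or 2 (1.68 and 2.15, adjusted p = 0.132 and 0.104) or E9.5 cKO replicate 1 or 2 (1.75 and 2.08, adjusted p = 0.623 and 0.12).

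*Gas6*, the ligand of AXL, was at 4.37 and 3.68 FPKM in the WT and 14.1 and 15.7 in the cKO libraries at E9.5 (log2 difference 1.66, SE 0.37, adjusted p = 0.116). *Igfbp3*, a binding protein of insulin-like growth factors, was at 1.70 and 1.38 in WT and 6.52 and 6.39 in cKO (1.56, SE 0.26, adjusted p = 0.0768). Neither passed this test, but *Igfbp3* did after median-ratio scaling (1.74, adjusted p = 0.0392), and both did when either E8.5 cKO library was left out of the shared fit, which then called 3 of the 19 genes. By libraries that did not overlap and 1.5-fold, these 2 genes and *Edn1* were higher, where 8.63% of all genes were, and 4 of the 19 were lower, where 13.8% were. The lowest 3 differences were those of *Ccdc80*, an extracellular matrix protein (-1.11, adjusted p = 0.218), *Myc* (-0.87, adjusted p = 0.407) and the cyclin gene *Ccnd1* (-0.77, adjusted p = 0.456), the last 2 genes being regulators of cell proliferation. *Ccnd1* was at 53.5 and 28.3 FPKM in WT and 18.4 and 27.5 in cKO, so its genotypes nearly met.

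Of 28 Hippo pathway genes that are not members, 20 passed the filter, and 3 of these (*Lats2*, *Ptpn14* and *Amotl1*) were also counted among the further YAP targets. Their median log2 difference at E9.5 was -0.18 and 0 of 20 were called in either direction, where 0.17% of all genes were called higher and 0.00998% lower, while an unadjusted p under 0.05 was reached by 0 upwards and 2 downwards, where 5.27% and 10.5% of all genes reached it. By libraries that did not overlap and 1.5-fold, 0 were higher and 3 lower, where 8.63% and 13.8% of all genes were. These were *Mob1a*, a LATS co-activator (9.41 and 12 FPKM in WT, 5.35 and 6.07 in cKO, log2 difference -0.79, adjusted p = 0.388), *Limd1*, a LIM protein related to AJUBA (-0.66, adjusted p = 0.235), and *Nf2*, the upstream activator merlin (-0.61, adjusted p = 0.295). *Nf2* was also lower in both cKO libraries at E8.5, at 11.4 and 9.53 FPKM against 17.1 and 17.0 (-0.66, adjusted p = 0.59). The 3 largest positive differences were those of *Wtip*, a further LIM protein (0.58, adjusted p = 0.417), *Strn3*, a subunit of a phosphatase that acts on MST kinases (0.32, adjusted p = 0.732), and the kinase gene *Taok1* (0.31, adjusted p = 0.685).

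Of the 4 other CCN family genes, only *Wisp1* passed the filter. It was at 1.59 and 1.52 FPKM in the WT and 1.26 and 1.17 in the cKO libraries at E9.5 (log2 difference -0.21, adjusted p = 0.703), and *Nov*, *Wisp2* and *Wisp3* were at most 0.172 FPKM in any library. Among the CCN genes, E9.5 cKO libraries above all others were seen in *Ctgf* and *Cyr61*.

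*Ctgf* and *Cyr61* also respond to serum response factor with its actin-regulated co-activators (MRTF-SRF) and to TGF-beta. All 13 MRTF-SRF targets passed the filter, with a median log2 difference of 0.45 at E9.5, and 0 were called. An unadjusted p under 0.05 was reached by 5 upwards and 0 downwards, where 5.27% and 10.5% of all genes reached it. By libraries that did not overlap and 1.5-fold, 5 were higher (*Acta2*, *Tagln*, *Cnn1*, *Cnn2* and *Flna*) and 1 was lower (*Vcl*), where 8.63% and 13.8% of all genes were. The largest differences were those of *Cnn1*, a smooth muscle calponin (145 and 167 FPKM in WT, 665 and 708 in cKO, 2.13, adjusted p = 0.0893), *Flna*, an actin crosslinker (18.3 and 15.0 against 50 and 64.4, 1.72, adjusted p = 0.108), and *Tagln*, a smooth muscle actin-binding protein (352 and 586 against 1540 and 1220, 1.59, adjusted p = 0.139). *Cnn1* passed the test when E8.5 cKO replicate 1 or 2 was left out of the shared fit (adjusted p = 0.0207 and 0.0205). The largest negative differences were those of the adhesion gene *Vcl* (-0.60, adjusted p = 0.406), *Actg2* (-0.27, adjusted p = 0.778) and *Tpm4* (-0.24, adjusted p = 0.884). Of 11 TGF-beta targets, 7 passed the filter, with a median of 0.02. Of these 0 were called and 0 reached an unadjusted p under 0.05, where the shares of all genes were 0.17% and 5.27% upwards and 0.00998% and 10.5% downwards. By libraries that did not overlap and 1.5-fold, 0 were higher and 1, *Col1a1*, was lower, where 8.63% and 13.8% of all genes were. Their range ran from *Col1a1* (-0.98, adjusted p = 0.324), also a mesenchymal marker, to the inhibitor gene *Smad7* (0.43, adjusted p = 0.611), with *Fn1* at -0.11, *Tgfbi* at -0.02, *Skil* at 0.20 and *Ski* at 0.12.

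**Figure D5:**
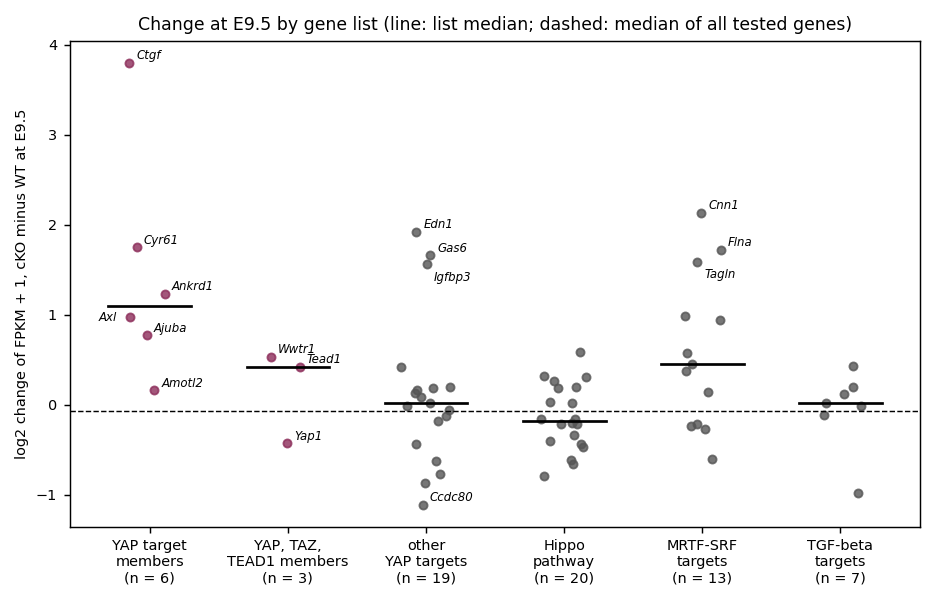
Log2 difference of FPKM + 1 of cKO from WT at E9.5 (vertical axis) for each tested gene of 6 lists, with the list median as a line and the median of all tested genes (-0.07) as a dashed line. The 6 target members have a median of 1.1, the 19 further YAP targets 0.02, the 20 Hippo genes (3 of them also among the further YAP targets) -0.18 and the 13 MRTF-SRF targets 0.45.

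Over the 8 libraries, the pattern of *Ctgf* was compared with that of every other tested gene by Pearson's r of log2(FPKM + 1), as a description. All genes share the same libraries, and *Ctgf* stood far above its other values in 2 of them, the E9.5 cKO libraries. The 10 most similar of 10017 genes were *Edn1* (0.986), the glycogen synthase gene *Gys1* (0.981), the integrin gene *Itga5* (0.979), *Rasl11b* (0.977), the calcineurin inhibitor gene *Rcan1* (0.972), *Cnn2* (0.969), *Mcam* (0.966), the von Willebrand factor gene *Vwf* (0.963), *Gipr* (0.961) and *Hcfc1r1* (0.960). *Vwf* and *Gipr* had group means under 1 FPKM in all groups but E9.5 cKO, and so passed the filter through that group alone. *Rcan1*, for example, was at 22.1 and 29.7 FPKM in the WT and 163 and 142 in the cKO libraries at E9.5. Among the members, *Cyr61* had r = 0.949 and was seventeenth in this order, and *Axl* had 0.841 and was at place 114. The others had 0.542 (*Amotl2*), 0.138 (*Ankrd1*), 0.127 (*Wwtr1*), -0.046 (*Ajuba*), -0.298 (*Tead1*) and -0.745 (*Yap1*).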

How the data were processed

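RNA was measured in 8 mouse heart libraries, grouped by the sample labels. The authors deposited 1 table of FPKM values. Their methods name Smart-seq amplification and BWA with build mm9, whereas the positions in the table are those of GRCm38, and the program that made the FPKM values is not given in the sources used here. The table held 24930 entries and 8 per-sample columns (all used). Of each of 285 repeated symbols the entry of highest mean was used, and 27 symbols turned into dates were told apart by position.

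The 10018 genes whose mean reached 1 FPKM were analysed as log2(FPKM + 1), which understates changes of low genes. The authors' FPKM values are relative within a library, so the median change of all genes is given with each comparison. A limma fit (limma 3.58.1, R 4.3.3) of all 4 groups with a mean-variance trend gave two-sided tests, adjusted by Benjamini-Hochberg over all genes. Calls needed an adjusted p under 0.05 and a fold of 1.5 or more. The fit was tested on simulated data. With 2 libraries against 2, the smallest p of an exact permutation test is 0.333. Alternatives were another scaling, quantile normalization, pseudocount, filter, set of groups, a replicate block and leaving out each library. Promoters and miRNAs came from RefSeq GRCm38.p6, and 3′ ends from GENCODE on NCBIM37.

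Members and lists were chosen with earlier results of these data known. From each list the called genes and up to 3 with the largest positive and negative differences at E9.5 are named, with all members, *Dgcr8* and the 10 genes most like *Ctgf*. Same-numbered replicates did not deviate together (correlations between -0.116 and 0.0168), so the numbers were not taken as pairs.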

Additional observations from a re-analysis of the deposited data

Results flagged for a closer look

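Among the members, the genes named from the lists and the 10 genes most like *Ctgf*, 5 had both cKO libraries below both WT libraries at E8.5 and above them at E9.5. The cKO effect at E9.5 minus that at E8.5 was 1.32 on the log2 scale for *Axl*, 0.90 for *Wwtr1*, 2.28 for *Edn1*, 2.18 for *Igfbp3* and 1.66 for *Mcam*. *Igfbp3*, for example, was at 7.32 and 5.85 FPKM in WT and 3.13 and 4.81 in cKO hearts at E8.5, and at 1.70 and 1.38 in WT and 6.52 and 6.39 in cKO hearts at E9.5. The opposite moves contain the E9.5 contrast used to choose the members, *Edn1* and *Igfbp3* were named for their E9.5 differences and *Mcam* for its likeness to *Ctgf* in these libraries, so no p-value is given and the difference was not tested for these 5 genes. These orders are of FPKM not scaled between libraries, and the median gene was at -0.28 at E8.5. Relative to it, the E8.5 differences were -0.07 for *Axl*, -0.08 for *Wwtr1* and *Edn1*, and -0.34 for *Igfbp3*. Among all genes tested, 537 (5.36%) had libraries that went lower at E8.5 and higher at E9.5. The reverse was seen in 28 (0.279%), likewise without scaling.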

How the results depend on the processing

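The E9.5 difference of *Ctgf* kept its direction in every alternative, between 3.19 and 4.4 when a library was left out. As a description, since the members were selected on this contrast, the number of members called higher at E9.5 was 1, *Ctgf*, under median-ratio scaling or a mean of at least 5 FPKM, and between 0 and 1 when a library was left out. Also as a description, between the stages in WT 5 members were called lower, but 0 with median-ratio scaling or quantile normalization, 1 with no filter, 2 with a mean of at least 5 FPKM and between 0 and 5 without a library, and between 0 and 1 were then called higher. In cKO, 1 was called lower, but 0 with median-ratio scaling, quantile normalization or a mean of at least 5 FPKM and between 0 and 1 without a library, with between 0 and 3 called higher. Of the further YAP targets, 2 (*Edn1* and *Igfbp3*) were called higher at E9.5 with median-ratio scaling and 0 with a pseudocount of 0.1, no filter, a mean of at least 5 FPKM (which *Edn1* itself does not reach), only the groups compared or the replicate block, and between 0 and 3 without a library. The replicate block changed no other call of the members, the further YAP targets or the Hippo genes. Between the stages in WT, where the correlation was -0.116, crossing its numbers left 1 member higher and 5 lower. For the other changes the cause was not tested.

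Some small log2 differences changed sign. Under the other scalings, with the value under median ratios first and under quantiles second, *Tead1* at E8.5 was at 0.15 and 0.14, *Cyr61* and *Amotl2* between stages in WT at 0.60 and 0.26 and at 0.70 and 0.67, *Ankrd1* and *Ajuba* between stages in cKO at 0.68 and 0.17 and at 0.24 and 0.33, and *Tgfbi* at E9.5 at 0.07 and 0.05. *Yap1* at E8.5 was at 0.01 with median-ratio scaling. Under quantile normalization *Wwtr1* between stages in WT was at 0.12 and *Tpm4* and *Fn1* at E9.5 at 0.02 and 0.14. Without a library, the E8.5 difference ranged from -1.35 to 0.02 for *Ctgf*, -1.10 to 0.01 for *Cyr61*, -0.17 to 0.25 for *Ajuba* and -0.44 to 0.25 for *Tead1*. Between stages it ranged in WT from -0.42 to 0.46 for *Ctgf* and -0.94 to 0.12 for *Cyr61*, and in cKO from -0.44 to 0.26 for *Ankrd1*, -0.85 to 0.01 for *Ajuba* and -0.25 to 0.35 for *Wwtr1*. At E9.5 it ranged from -0.08 to 0.40 for *Amotl2*, -0.06 to 0.71 for *Strn3*, -0.02 to 0.63 for *Taok1*, -0.76 to 0.22 for *Actg2*, -0.93 to 0.46 for *Tpm4*, -0.27 to 0.05 for *Fn1*, -0.16 to 0.13 for *Tgfbi*, -0.15 to 0.55 for *Skil* and -0.24 to 0.49 for *Ski*.

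With 2 libraries per group and no read counts, differences of low genes such as *Tead1* and *Wtip* could not be given a counting error.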
